A study of Mus musculus with 16 samples.

Results

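The forkhead O (FOXO) transcription factors and a panel of genes reported as their targets were followed in the gonadal fat of fed and fasted mice. The panel held 10 genes chosen by symbol: the factors Foxo1, Foxo3 and Foxo4, and the targets Depp1, Pik3ip1, Ccng2, Cited2, Bcl6, Fbxo32 and Eif4ebp1. All 10 were measured, among 22180 genes in all. A gene was read from the probe set annotated to its symbol alone and, where it had several, from the brightest of them on average. Foxo1 had 2 such probe sets and the other members had 1 each.

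Gonadal white adipose tissue, the fat pad beside the epididymis, had been collected in the morning from male C57BL/6 mice 3 to 4 months old. One group of 8 samples came from mice fed ad libitum and the other 8 from mice without food for 16 hours. Total RNA was hybridised to 16 Affymetrix whole-transcript arrays, and the question was which transcripts change in white fat on fasting. The labels name no genotype, drug or other treatment, and do not state whether every sample was its own animal. The p-values therefore describe sample-to-sample spread, some of which may be technical.

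FOXO proteins sit at the end of the insulin pathway. When insulin acts, the kinase Akt phosphorylates them, they are held outside the nucleus by adaptor proteins, and transcription of their targets stops; when insulin is low, as in fasting, they return to the nucleus. Much of their control is therefore on the protein and its location, which an RNA array does not measure. In fat cells FOXO proteins are known for acting on genes of lipolysis, autophagy and differentiation.

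The arrays had much in common: correlations between them over all genes ran from 0.966 to 0.993. The mean log2 level of 10 adipocyte markers lay between 10.18 and 10.45 in fed and between 10.09 and 10.40 in fasted arrays, with 3 of the 10 higher and 1 lower in fasted arrays. The mean of 9 adipose progenitor markers was 8.43 to 8.64 in fed arrays and 8.16 to 8.38 in 7 of the 8 fasted arrays, with 2 of the 9 lower. Fasted replicate 1 was the exception, at 8.80, and it also had the highest macrophage and mesothelial means, 9.12 and 7.83, and the lowest adipocyte mean. The part of such shifts in the results was not tested. Fed replicates 2 and 3 and fasted replicate 7 stood apart in an earlier analysis of these arrays. The mean of 12 motile cilia transcripts was 5.52 in fed replicate 2 and 4.90 in fasted replicate 7, and at most 3.80 elsewhere. The mean of 19 liver transcripts ranged from 5.77 to 8.63 in fed and from 5.88 to 8.00 in fasted arrays, with 1 of the 19 higher and 1 lower.

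Because FOXO proteins bind short DNA elements, the 250 bases before the start sites were searched on both strands for 3 words. These were GTAAACA, the core of the classic FOXO element, its variant GTAAATA, and CAAAACA, the core of the insulin response element, which do not overlap one another in the stretches shown. They were chosen with the sequences in view. RefSeq promoters (GRCm38.p6) were at hand for 7 of the 10 members, in 8 windows. The whole stretch is shown for Depp1, the member with the largest rise, and short stretches for Ccng2, the other member with a match, and for 6 genes of a longer target list described further on that both held a match and changed. Capitals mark the match, and every sequence runs 5′ to 3′ on the strand of its gene.
Depp1, chr6:116650434-116650683, plus strand: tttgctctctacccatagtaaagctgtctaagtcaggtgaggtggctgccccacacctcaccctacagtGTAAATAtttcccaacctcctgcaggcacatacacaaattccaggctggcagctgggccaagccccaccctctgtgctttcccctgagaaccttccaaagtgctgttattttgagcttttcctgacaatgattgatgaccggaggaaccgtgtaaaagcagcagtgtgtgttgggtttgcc
Ccng2, chr5:93267540-93267572, plus strand: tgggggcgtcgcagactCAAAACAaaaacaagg
Txnip, chr3:96557819-96557859, plus strand: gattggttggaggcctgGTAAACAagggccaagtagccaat
Btg1, chr10:96616780-96616820, plus strand: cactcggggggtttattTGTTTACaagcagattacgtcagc
Mxi1, chr19:53329447-53329487, plus strand: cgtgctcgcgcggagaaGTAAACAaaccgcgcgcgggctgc
Bcl2l11, chr2:128125794-128125834, plus strand: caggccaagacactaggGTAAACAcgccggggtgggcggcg
Bbc3, chr7:16310077-16310117, plus strand: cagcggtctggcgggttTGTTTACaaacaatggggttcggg
Irs2, chr8:11008943-11008983, minus strand: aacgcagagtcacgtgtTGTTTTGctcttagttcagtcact

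In Depp1 the match began 181 bases before the start site, and in Ccng2 it began 16 bases before it. GTAAACA was in 3.17% of 32851 promoter windows of this length, GTAAATA in 2.73% and CAAAACA in 5.56%. At least 1 of the 3 words stood in 10.9% of all windows and in 2 of the 8 member windows. A match is a run of letters and not evidence of binding, and the absence of these letters from a window says nothing about FOXO at that gene.

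Of the 3 factors, Foxo3 alone passed the test, and its rise was small. Foxo3 lay between 5.62 and 5.94 in fed arrays, with a median of 5.91, and between 5.77 and 6.47 in fasted arrays, with a median of 6.16 (all on the log2 scale). In 7 of the 8 fasted arrays it was above every fed array; the exception was fasted replicate 6, at 5.77. The mean went from 5.84 ± 0.12 to 6.15 ± 0.19 (SD, n = 8 per group), a log2 fold change of 0.31 (SE 0.084, limma adjusted p = 0.0131), or 1.24-fold with a 95% interval of 1.10 to 1.40. Without any 1 array the log2 fold change lay between 0.26 and 0.36.

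Foxo1, the most studied member in fat and liver, did not pass the test. It lay between 7.92 and 8.30 in fed arrays, with a median of 8.14, and between 7.88 and 8.17 in fasted arrays, with a median of 8.06. The groups overlapped over most of their range, and 4 fed arrays were above every fasted array. The log2 fold change was -0.07 (SE 0.067, limma adjusted p = 0.546), and its 95% interval of -0.22 to 0.07 spans fasted-to-fed ratios of 0.861 to 1.05. The dimmer Foxo1 probe set gave -0.10 (SE 0.10, adjusted p = 0.598 over all probe sets).

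Foxo4, the factor encoded on the X chromosome, was not called either. Its range was 5.34 to 5.86 in fed arrays (median 5.57) and 5.29 to 5.74 in fasted arrays (median 5.47), so the groups lay over each other. The log2 fold change was -0.05 (SE 0.086, limma adjusted p = 0.788; 95% interval -0.23 to 0.13).

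The responses of the factors were then compared within each array, as the difference of the log2 values of 2 factors. Foxo3 minus Foxo1 was higher in fasted than in fed arrays by 0.38 (SE 0.090, exact permutation p = 3.11e-04, two-sided, adjusted p = 9.32e-04 over 3 pairs, n = 8 per group), and 7 of 8 fasted arrays were above every fed array. Foxo3 minus Foxo4 was higher by 0.36 (SE 0.12, exact permutation p = 0.00653, adjusted p = 0.00979, n = 8), with 3 of 8 fasted arrays above every fed array. Foxo1 minus Foxo4 differed by -0.03 (SE 0.075, exact permutation p = 0.741, adjusted p = 0.741, n = 8). The response of Foxo3 thus differed from those of the other 2 factors, and no difference was detected between Foxo1 and Foxo4. Such a difference within an array shows unequal change of 2 transcripts, not which of them moved.

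**Figure D1:**
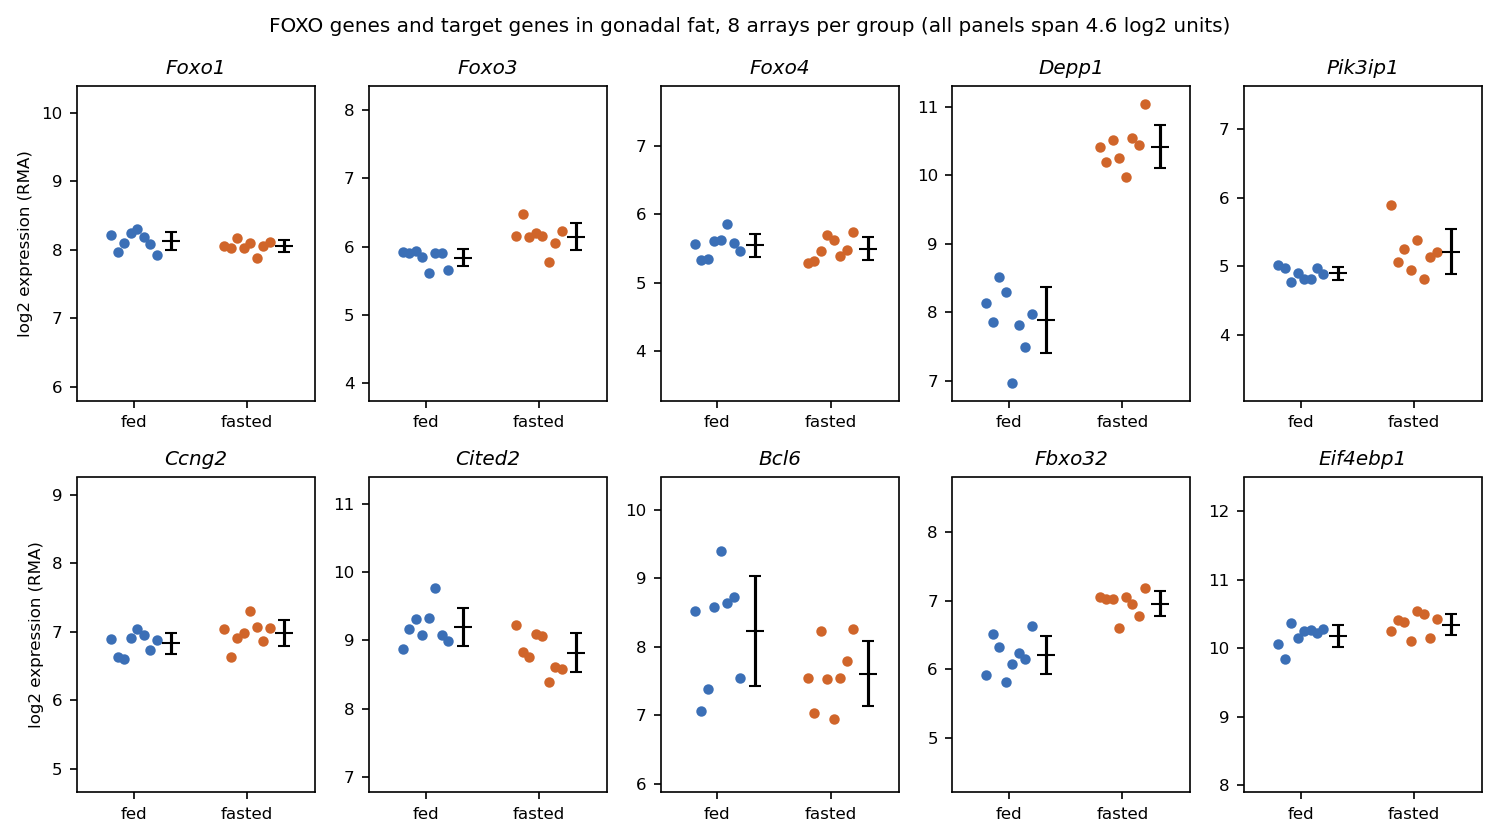
Log2 expression (RMA) of the 10 genes in 8 fed (blue) and 8 fasted (orange) arrays, 1 point per array, with the mean and SD in black; all panels span the same number of log2 units but are centred on each gene. The groups are fully apart for Depp1. For both Fbxo32 and Foxo3, 7 of 8 fasted arrays are above every fed array. Below every fasted array are 7 fed arrays for Fbxo32 but 2 for Foxo3. The groups overlap widely for Foxo1, Foxo4 and Ccng2, and for Bcl6 5 of 8 fed arrays are above every fasted array.

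Among the 7 targets, Depp1 and Fbxo32 rose and the other 5 did not pass the test. With Foxo3, 3 of the 10 genes were called higher in fasted arrays and 0 lower (limma, Benjamini-Hochberg adjusted p under 0.05), beside 8.49% of all genes called higher and 10.7% called lower. Of the 7 not called, limma's p before adjustment was under 0.05 for 2 with lower fasted means, Cited2 and Bcl6, and for Pik3ip1, with a higher one. The median log2 fold change of the 10 genes was 0.16, beside -0.0042 over all genes. The genes were chosen with earlier results of these arrays known, so this share is a description.

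Depp1 encodes a small protein linked to autophagy and first described as induced by progesterone; it is among the genes that respond most readily to FOXO in cultured cells. In fed arrays it lay between 6.97 and 8.52, with a median of 7.92, and in fasted arrays between 9.98 and 11.04, with a median of 10.43. Every fasted array was above every fed array, a separation upward that 3.03% of all genes showed, with 3.45% separated downward and 6.48% either way; Depp1 was the 1 member of the 10 without overlap. The mean went from 7.88 ± 0.48 to 10.42 ± 0.31 (SD, n = 8), a rise of 2.54 on the log2 scale (SE 0.18, limma adjusted p = 1.59e-08), or 5.81-fold with a 95% interval of 4.44 to 7.60. The fed arrays were also far apart from each other: the fed SD was larger than that of 97.6% of 10809 genes with a mean of at least log2(20), the lowest value being that of fed replicate 5 and the highest that of fed replicate 3.

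Depp1 is also known from endothelial cells. Of 10 endothelial markers 4 were higher in fasted arrays (Eng, Sox17, Pecam1 and Tek) and 1, Erg, was lower, and the list's mean ranged from 8.04 to 8.51 in fed and from 8.30 to 8.59 in fasted arrays. The part of endothelial RNA in the Depp1 result was not tested. In whole tissue, more cells of a type and more RNA per cell cannot be told apart.

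Fbxo32, which encodes the ubiquitin ligase subunit atrogin-1, is best known as a FOXO target in wasting skeletal muscle. It ranged from 5.82 to 6.63 in fed arrays (median 6.19) and from 6.60 to 7.18 in fasted arrays (median 7.02). The groups touched only where fed replicate 8, at 6.63, stood just above fasted replicate 4, at 6.60. The rise was 0.75 on the log2 scale (SE 0.11, limma adjusted p = 7.99e-05), from 6.21 ± 0.28 to 6.96 ± 0.19 (SD, n = 8), or 1.68-fold with a 95% interval of 1.43 to 1.98. Skeletal muscle transcripts were near the floor of the arrays: 9 of 10 muscle markers had a mean below log2(20), none of the 10 was called, and the list's mean was 3.04 to 3.40 in fed and 2.98 to 3.23 in fasted arrays. Trim63, the other ubiquitin ligase of muscle wasting, was dim as well, at 3.17 in fed and 3.14 in fasted arrays (adjusted p = 0.874).

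Pik3ip1, a membrane protein that inhibits phosphoinositide 3-kinase and so acts against the insulin signal, spread out in fasted arrays without passing the test. The fed arrays were close together, from 4.77 to 5.02 (median 4.90), and the fasted arrays ran from 4.81 to 5.90 (median 5.17). Of the fasted arrays 6 were above every fed array, and the highest, fasted replicate 1 at 5.90, stood clear of the next at 5.38; this was the array with the highest progenitor, macrophage and mesothelial means. The SD was 0.089 in fed arrays, larger than that of 11.1% of genes, and 0.33 in fasted arrays, larger than that of 89.8%. The log2 fold change was 0.32 (SE 0.12, limma adjusted p = 0.0641), and 0.22 without fasted replicate 1 (adjusted p = 0.0699). It passed the threshold under other settings, among them array median subtraction (adjusted p = 0.0412) and cyclic loess (0.0292), and over all alternatives the adjusted p ran from 0.0246 to 0.130.

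Eif4ebp1 encodes the protein that binds the cap-binding factor of translation and is switched off by mTORC1. It ranged from 9.85 to 10.37 in fed arrays (median 10.24) and from 10.11 to 10.54 in fasted arrays (median 10.40), and 5 fasted arrays were above every fed array. The log2 fold change of 0.17 (SE 0.084) did not pass the test (limma adjusted p = 0.208; 95% interval -0.01 to 0.34).

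Ccng2, an unusual cyclin that is found in cells leaving the cell cycle, ranged from 6.61 to 7.04 in fed arrays (median 6.89) and from 6.63 to 7.30 in fasted arrays (median 7.01). The 2 ranges overlapped over most of their length, and 4 fasted arrays were above every fed array. Its log2 fold change was 0.15 (SE 0.090, limma adjusted p = 0.304; 95% interval -0.04 to 0.34).

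Both transcription regulators among the targets had lower means in fasted arrays, and neither passed the test. Cited2, a partner of the acetyltransferases Crebbp and Ep300, ranged from 8.87 to 9.76 in fed arrays (median 9.12) and from 8.40 to 9.23 in fasted arrays (median 8.79). Of the fasted arrays 5 were below every fed array. The log2 fold change was -0.38 (SE 0.13, limma adjusted p = 0.0524), just short of the threshold, and without any 1 of 5 arrays it was called lower: fed replicates 1 and 8 (adjusted p = 0.0350 and 0.0492) and fasted replicates 1, 4 and 5 (0.0233, 0.0375 and 0.0455). With either of 2 other settings, the replicate number as a block or a rank sum test, the adjusted p was 0.122 or 0.113. Without fed replicates 2 and 3 and fasted replicate 7, the log2 fold change was -0.33 (limma adjusted p = 0.166). Over all 28 alternatives Cited2 was called lower in 8.

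Bcl6, a repressor of transcription that acts in B and T cells and also in fat and liver, varied most among the 10 genes. It ranged from 7.06 to 9.40 in fed arrays (median 8.56) and from 6.95 to 8.26 in fasted arrays (median 7.55). Of the fed arrays 5 were above every fasted array, from 8.52 to 9.40, and fed replicates 2, 3 and 8, at 7.06, 7.39 and 7.54, lay inside the fasted range. The fed SD of 0.81 was larger than that of 99.1% of genes and the fasted SD of 0.48 larger than that of 97.0%. The log2 fold change was -0.62 (SE 0.30, limma adjusted p = 0.172). Without fed replicate 2 it was -0.79 (adjusted p = 0.0488), and without fed replicates 2 and 3 and fasted replicate 7, which had stood apart, it was -0.98 (SE 0.26, adjusted p = 0.0149). Without fed replicate 5 it was -0.46 (adjusted p = 0.313), and without fasted replicate 5 it was -0.53 (adjusted p = 0.286). Fed replicates 2 and 3 held the lowest fed values of Bcl6, so leaving them out enlarges the fall by construction. Leaving out fed replicate 5, the highest at 9.40, shrinks the fall in the same way.

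The liver means of the fed arrays with low Bcl6 were 8.41 in replicate 2, 8.63 in replicate 3 and 6.25 in replicate 8; in fed replicate 4 the liver mean was 8.31 and Bcl6 8.59. With the liver mean as a covariate the log2 fold change of Bcl6 was -0.63 (adjusted p = 0.146). Lymphocyte transcripts were low in all arrays: the means of 9 B cell and 7 T cell markers were at most 4.04 and 4.15, with 1 B cell marker lower in fasted arrays and no T cell marker called. The part of liver or lymphocyte RNA in the spread of Bcl6 was not tested.

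**Figure D2:**
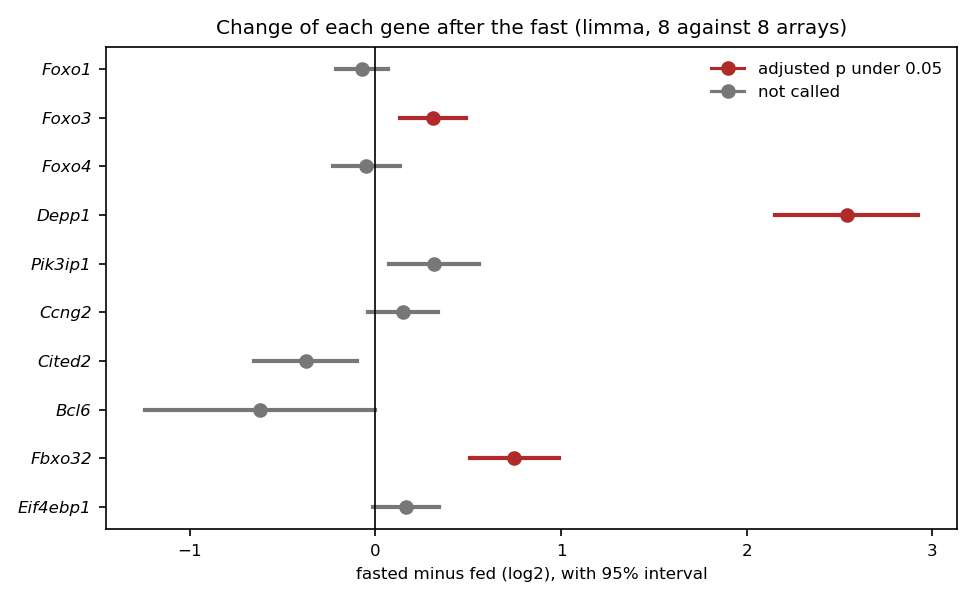
Log2 fold change (fasted minus fed) of each of the 10 genes with its 95% interval from limma, red where the adjusted p over all genes was under 0.05 and grey otherwise. Depp1 stands at 2.54, Fbxo32 and Foxo3 at 0.75 and 0.31, and the other 7 genes were not called.

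Whether the target genes followed the level of the FOXO transcripts from array to array was examined within each group, over 42 relations of 3 factors, 7 targets and 2 groups. None passed the adjustment, and 4 had an unadjusted exact permutation p under 0.05, all of them in fed arrays. The strongest was between Foxo1 and Fbxo32 in fed arrays, which ran opposite ways, with Pearson's r = -0.889 (exact permutation p = 0.00441, adjusted p = 0.185, n = 8). Their ranks gave a Spearman's rho of -0.857 (exact permutation p = 0.0107, adjusted p = 0.150). With the 2 arrays of most extreme Foxo1 left out, r was -0.647. In fasted arrays the strongest was between Foxo1 and Pik3ip1, with r = 0.514 (exact permutation p = 0.190, adjusted p = 0.814, n = 8). Its rho was 0.690 (exact permutation p = 0.0694, adjusted p = 0.583), and leaving out the 2 most extreme arrays gave r = 0.362.

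**Figure D3:**
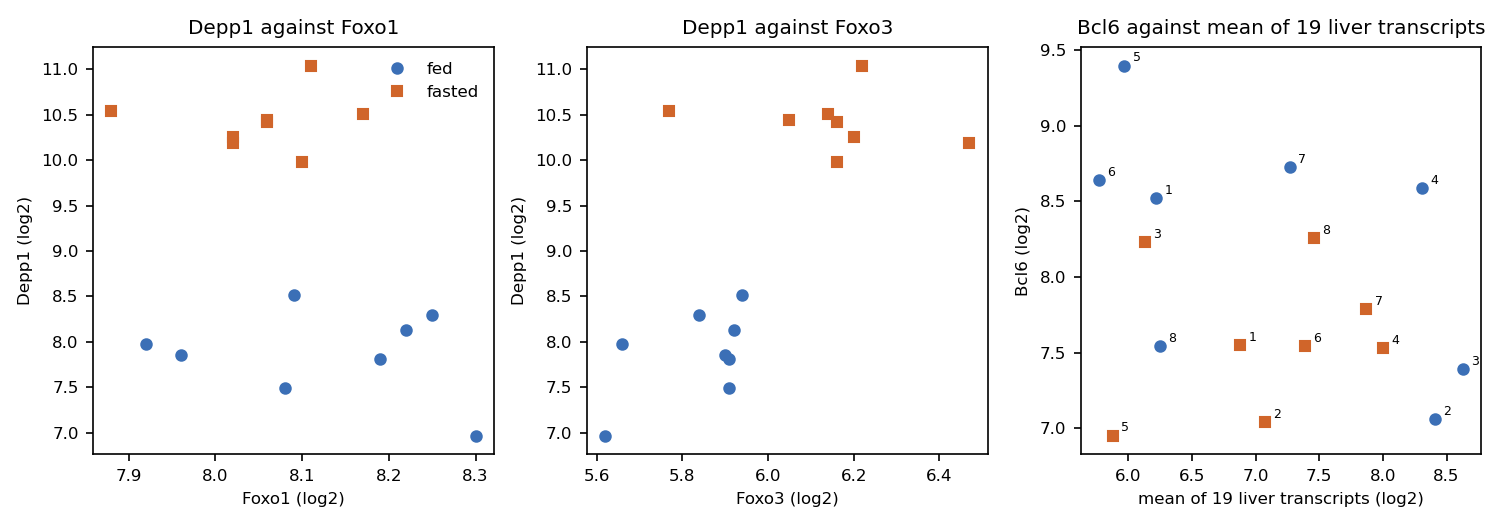
Each point is 1 array (fed, blue circles; fasted, orange squares), on log2 scales: Depp1 against Foxo1, Depp1 against Foxo3, and Bcl6 against the mean of 19 liver transcripts with replicate numbers. Depp1 is between 9.98 and 11.04 in fasted and at most 8.52 in fed arrays, at overlapping levels of Foxo1, and the fed arrays with low Bcl6 include 2 with high and 1 with low liver means.

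A longer list of 44 genes reported as FOXO targets, none of them among the 10, was read from the same fit. Of the 43 measured, 22 were higher in fasted arrays (51.2%), 5 were lower (11.6%) and 16 were not called, beside 8.49% and 10.7% of all genes, with a median log2 fold change of 0.39 beside -0.0042 over all genes. In 18 of them the fasted arrays were all above the fed arrays and in 3 all below, beside 3.03% and 3.45% of all genes. Several of these genes are known to answer to other signals of fasting too, such as glucocorticoids, and the list does not separate the 2. With the filter on dim genes 24 of 38 list genes were called higher, beside 1970 of 10832 genes. The list was chosen with earlier results of these data known, so its shares are a description.

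The largest rise in the list was that of Pdk4, the kinase that shuts pyruvate dehydrogenase, which went from a range of 7.10 to 7.77 in fed arrays to 10.46 to 10.88 in fasted arrays (log2 fold change 3.32, SE 0.094). Of genes that restrain mTORC1, Ddit4 rose 8.46-fold and Sesn2 3.30-fold. Among genes that restrain growth and the cell cycle, Gadd45g rose 5.35-fold, the kinase inhibitor Cdkn1a 2.55-fold, Btg1 1.94-fold and Gadd45b 1.76-fold. Of the autophagy genes, Gabarapl1 rose 2.22-fold, Bnip3 1.82-fold, Ulk1 1.47-fold and Map1lc3b 1.35-fold, and Atg14 was not called (log2 fold change 0.15). On the insulin pathway itself, the receptor Insr rose 1.74-fold and its substrate Irs2 1.80-fold.

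The 5 genes that fell were 11.6% of the list, beside 10.7% of all genes without a filter. With the filter on dim genes 4 of 38 list genes were lower, beside 2583 of 10832 genes. The 5 were the stress protein Sesn3 (1.85-fold lower), the cyclin Ccnd2, which FOXO is known to repress (1.83-fold), the death ligand Tnfsf10 (1.76-fold), the mitochondrial superoxide dismutase Sod2 (1.64-fold) and the death protein Bbc3 (1.37-fold). Of the sestrins, Sesn2 was higher, Sesn3 lower and Sesn1 not called (log2 fold change -0.07). The antioxidant genes were likewise divided: catalase (Cat) rose 1.38-fold while Sod2 fell, and Prdx3 was not called (0.15). The classic liver targets G6pc and Igfbp1 had log2 fold changes of 0.35 (SE 0.34) and 0.72 (SE 0.38) and were not called, in arrays whose liver means differed as given above.

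Of the stretches printed above, those of Txnip, Btg1, Mxi1 and Bcl2l11, with GTAAACA, and Irs2, with CAAAACA, belong to genes that rose, by 0.53, 0.96, 0.46, 0.33 and 0.85 on the log2 scale. That of Bbc3, also with GTAAACA, belongs to a gene that fell by 0.45. In all, GTAAACA was found before 6 of the 40 list genes with a promoter window, which had 47 windows between them. Of these 6 genes 4 were called higher, beside 51.2% of the 43 measured list genes. Bbc3 and Trim63, at -0.03, were the others. Whether the word goes with the change was not tested. CAAAACA was found before 3 list genes, Irs2, Igfbp1 and G6pc, and GTAAATA, the word in Depp1, before 0 of the 40. Bcl2l11 was close to log2(20), at 4.43 in fed and 4.76 in fasted arrays, and Bbc3 was below it, at 3.74 and 3.29.

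**Figure D4:**
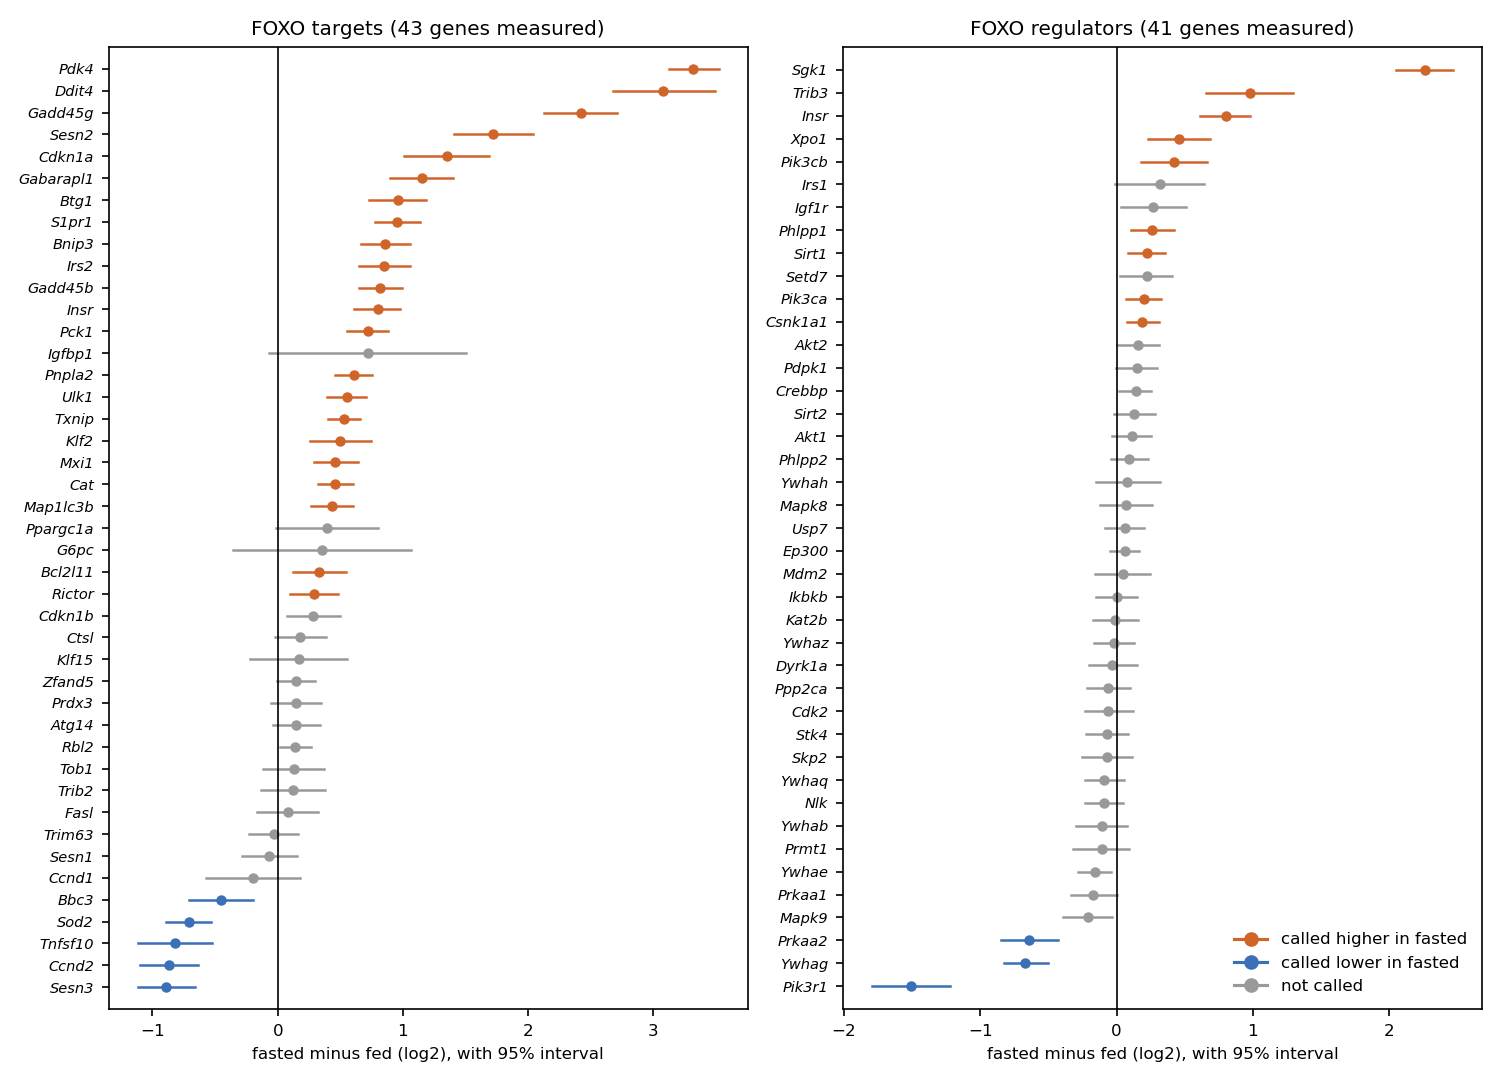
Log2 fold changes (fasted minus fed) with 95% intervals from limma for 43 FOXO target genes (left) and 41 genes that act on FOXO proteins (right), orange where called higher in fasted, blue where called lower and grey where not called. On the left 22 genes are orange and 5 blue; on the right 9 are orange and 3 blue, and most intervals lie close to 0.

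A list of genes that act on FOXO proteins was read in the same way. Of 46 listed kinases, phosphatases, adaptors, export factors, deacetylases and ubiquitin ligases, 41 were measured, and 9 were higher in fasted arrays (22.0%), 3 were lower (7.32%) and 29 were not called, beside 8.49% and 10.7% of all genes. Their median log2 fold change was 0.06. All 41 passed the filter on dim genes. With that filter 10 were called higher and 4 lower, beside 1970 and 2583 of 10832 genes. This list too was chosen with earlier results of these data known, so its shares are a description. The largest rise was that of Sgk1, a kinase that phosphorylates FOXO as Akt does and is a known glucocorticoid target. It ranged from 5.12 to 5.86 in fed and from 7.61 to 8.11 in fasted arrays, a 4.79-fold rise (log2 fold change 2.26, SE 0.099, limma adjusted p = 3.09e-11). Trib3, a pseudokinase that binds Akt, rose 1.97-fold, and Insr, which stands in both lists, 1.74-fold.

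Pik3r1, the regulatory subunit of phosphoinositide 3-kinase, ranged from 9.34 to 10.40 in fed and from 8.04 to 8.73 in fasted arrays, a log2 fold change of -1.51 (SE 0.14). The catalytic subunits Pik3cb and Pik3ca rose 1.34-fold and 1.15-fold. The kinases that join this signal to FOXO did not pass the test: the log2 fold change was 0.11 for Akt1, 0.16 for Akt2 and 0.15 for Pdpk1. Of the 6 measured Ywha adaptors, which hold phosphorylated FOXO outside the nucleus, Ywhag fell 1.59-fold (all fasted arrays were below all fed arrays) and the other 5 were not called, with log2 fold changes between -0.16 and 0.08. The catalytic subunit Prkaa2 of the AMP-activated kinase fell 1.56-fold, and Prkaa1 was not called (-0.17).

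Among smaller rises were those of the nuclear exporter Xpo1 (1.37-fold), the Akt phosphatase Phlpp1 (0.26 on the log2 scale), the deacetylase Sirt1 (1.16-fold) and the casein kinase Csnk1a1 (1.14-fold). The acetyltransferases Crebbp, Ep300 and Kat2b, and the ubiquitin pathway genes Skp2, Mdm2 and Usp7, had log2 fold changes between -0.07 and 0.14 and were not called.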

How the data were processed

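The deposited values are log2 expression values per probe set, between 0.994 and 13.2, with array medians between 3.60 and 3.69; their range shows the log2 scale. RMA, which corrects background, normalizes between arrays and summarises probes, is named in the submitters' processing notes; for its version, software, genome build and filters, the entry is: not given in the sources used here. RMA sets arrays to a shared distribution, so changes are relative to the other transcripts, and dim or saturated probes compress fold changes. No depth applies, and the number of arrays limits the precision. Of 41345 probe sets, 23521 had 1 symbol in the platform annotation, 1814 had several and 16010 were unnamed here, which left 22180 genes. limma 3.58.1 in R 4.3.3 (lmFit on group, eBayes) was fitted to all genes without a filter, and calls used a Benjamini-Hochberg adjusted p under 0.05; SEs are moderated. Exact permutation tests used SciPy 1.17.1 in Python 3.11.15, and figures matplotlib 3.10.9. The fit was tested on simulated data. It called 68.7% of genes given a log2 change of 0.5, 92.5% at 1 and 98.5% at 2, with 10 false calls. Only 200 of 22180 genes were changed there, while 4251 (19.2%) were called in these data. With fewer changed genes the adjustment is stricter, so these shares do not give the recovery in these data. Smaller changes, the size of those of most members not called, were not simulated. The members and lists were chosen with earlier results of these data known. Named genes were the 10 members, the 6 called genes with the largest change of each pathway list, Foxo6 and 3 called genes of the other forkhead list, the correlation with the lowest p in each group, and the 3 genes most like Foxo1, Foxo3 and Depp1; other list genes were named after their values were seen. The labels name no batch, and none was modelled.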

Additional observations from a re-analysis of the deposited data

Results flagged for a closer look

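Of 52 groups of 8 arrays, for 26 named genes, 1 held an array far from the others by Dixon's criterion, which chance meets in about 1 of 20 groups. This was Ywhag in fasted replicate 1, at 6.74 on the log2 scale against 7.00 in the nearest fasted array. Without that array the gene was still called lower in fasted arrays.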

How the results depend on the processing

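Depp1 and Fbxo32 kept their direction and their call under all 28 alternatives, with log2 fold changes between 2.41 and 2.64 and between 0.69 and 0.85. Foxo3 kept both except at a threshold of 0.01. No member changed sign. The count of members called lower was 1 in place of 0 with the filter on dim genes, with trend and robust settings and with array weights (Cited2 in each), and without the 3 arrays that stood apart (Bcl6). Leaving out each array in turn it ran from 0 to 1. With array weights 5 regulators were called lower, and at a threshold of 0.01, by construction, 4 were called higher. The difference between the responses of Foxo1 and Foxo4 went from -0.03 to 0.0046 without the 3 arrays; the cause was not tested. Same-numbered fed and fasted arrays did not deviate together (correlations from -0.216 to 0.218, and 2 of 8 fed arrays closest to their own number), so the numbers were not taken as pairs. With the replicate block 3 members were called higher and 0 lower, as without it, 22 targets were called higher and 5 lower, also as without it, and the regulators called higher went from 9 to 7, with 3 lower in both fits. Array median subtraction moved the share of higher calls among all calls from 44.3% to 54.7%. Low probe signal limits what can be said of Trim63, Bbc3, G6pc, Igfbp1 and Foxo6.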

Other observations

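Of 23 other forkhead genes 5 were higher in fasted arrays (21.7%) and 0 lower by limma, beside 8.49% and 10.7% of all genes (before adjustment, 1 was lower at a p under 0.05, Foxm1), and 12 of the 23 were too dim for the filter on linear values. Foxc1, a factor of mesenchymal and vascular cells, rose 1.35-fold, Foxp1 1.28-fold and Foxj3 1.22-fold; the call of Foxj3 was lost at a threshold of 0.01 and without the 3 arrays that stood apart (adjusted p = 0.106). Foxk1, a repressor that is also controlled by insulin signalling, rose 1.22-fold with all fasted arrays above all fed arrays, and Foxl2 rose 1.22-fold at a dim level of 2.33 in fed arrays; these 2 were named after their values were seen. Foxo6, the remaining FOXO gene, was dim, with a fed mean of 2.98 ± 0.18 and a fasted mean of 3.15 ± 0.32 (SD, n = 8 each), and was not called (limma adjusted p = 0.401).

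The genes whose variation within the groups was most like that of a member were found from group-centred values over the 16 arrays, among 10808 genes with a mean of at least log2(20). For Foxo1 these were Npepps, Fadd and Baz1a (r = 0.825, 0.799 and 0.790), for Foxo3 Cdk10, Dclre1b and Arid1b (0.878, 0.825 and 0.824), and for Depp1 Tnks, Cwf19l1 and Qsox1 (0.815, 0.779 and 0.776). These are the highest of many correlations over few arrays and are given as a description.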
